A study of Mus musculus with 6 samples.

Results

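The AP-1 family of transcription factors was followed as 10 mouse genes, chosen by symbol. They are Fos, Fosb, Fosl1 and Fosl2 of the Fos group, Jun, Junb and Jund of the Jun group, Batf and Batf3 of the BATF group, and Maff, a small Maf factor. All 10 of the 49315 genes in the count table were found, and 8 of them had enough reads for a test among 12274 tested genes. The RNA came from RAW264.7, a macrophage-like mouse line labelled wild type, grown for 24 h with SKI-II at 4 μg/mL or with its vehicle DMSO, 3 libraries per condition. The compound SKI-II blocks sphingosine kinases, by which it is generally described. The comparison asks which transcripts differ between treated and vehicle cells.

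AP-1 factors bind DNA as pairs held together by a leucine zipper. Jun proteins pair with themselves, with Fos proteins or with BATF proteins, while Fos proteins need a partner. Fos, Fosb, Jun and Junb are classic immediate early genes, which are switched on within minutes by MAP kinase signalling, and Fosl1 is a later gene that AP-1 itself can drive. BATF proteins lack an activation domain and act beside IRF factors in immune cells. Small Maf proteins also lack an activation domain and are partners of Nrf2, the factor that drives antioxidant genes. In macrophages AP-1 takes part in inflammatory gene expression and in the step toward osteoclasts.

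The labels do not say that the libraries came from separate cultures, so the p-values measure the spread between these libraries. The libraries held 12495957 to 20050677 counts, and normalized counts are counts scaled to a common library of 16042438. Of 12 macrophage markers, 11 were tested, 3 rose and 3 fell (27.3% each, against 18.4% and 19.7% of all tested genes), and 1, Marco, was at 0. Their summed level was 141677 to 206813 normalized counts with DMSO and 89849 to 127604 with SKI-II, and Lyz2 was the most abundant of them in both conditions on average. Defining genes of other cell types were at or near 0, among them Ms4a1 and Ebf1 of B cells, Cd3g and Trac of T cells and Lum and Thy1 of fibroblasts. Of the B cell, T cell and fibroblast lists, 1, 1 and 0 genes had enough reads for a test. The exceptions were Ighm, with 284, 222 and 186 counts with DMSO and 1, 1 and 0 with SKI-II, and Lck, which rose from 106 to 207 normalized counts on average. Whether either has a part in the AP-1 values was not tested.

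The letters upstream of the 5 members that had both reads and a match to the motifs searched are given first. Whether they have a part in the transcript changes given below was not tested. RefSeq windows, from 250 bases before to 50 after each annotated start, held 11 starts of 9 members, with Fosl1 not matched. The RefSeq starts used were not always the GENCODE starts. The Jund window (chr8:70697489-70697788) ends before the gene's GENCODE start at 70698949. The windows of Fosl2 and Batf3 lie wholly after the GENCODE starts of these genes, and the start used for Junb lies upstream of its GENCODE start. The 120 bases just before the start are printed in genome build GRCm38.p6, 5′ to 3′ on the strand of the gene, and capitals mark a match to TGACG, TGACNTCA or TATAAA.
Fos (chr12:85473770-85473889, plus strand): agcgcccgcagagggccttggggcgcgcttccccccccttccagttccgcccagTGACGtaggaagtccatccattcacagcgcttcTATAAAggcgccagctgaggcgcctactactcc
Fosb (chr7:19310046-19310165, minus strand): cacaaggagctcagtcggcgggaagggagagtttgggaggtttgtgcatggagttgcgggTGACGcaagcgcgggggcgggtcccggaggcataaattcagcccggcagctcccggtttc
Jun (chr4:95052223-95052342, minus strand): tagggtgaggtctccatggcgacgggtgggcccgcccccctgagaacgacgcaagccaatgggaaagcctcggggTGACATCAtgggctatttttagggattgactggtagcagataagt
Junb (chr8:84978749-84978868, minus strand): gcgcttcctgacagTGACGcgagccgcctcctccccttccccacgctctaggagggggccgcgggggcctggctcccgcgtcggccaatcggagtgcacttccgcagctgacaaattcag
Maff, the second start (chr15:79347400-79347519, plus strand): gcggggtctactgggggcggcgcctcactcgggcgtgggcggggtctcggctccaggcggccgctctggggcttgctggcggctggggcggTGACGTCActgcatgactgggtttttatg
Neither TGANTCA, the classic AP-1 site, nor the CArG box, the site of serum response factor, was found in any of the 11 member windows, against 7.81% and 1.63% of all 32851 windows. Sites more than 250 bases before a start lay outside the windows, so a member may hold either motif there. The CRE, TGACGTCA, lay in 1 of the 11 windows, that of the second Maff start, at bases -29 to -22, and in 1.79% of all windows. Jun held the related TGACATCA at bases -45 to -38, and the pattern TGACNTCA, which also takes in the CRE, was in 3 of 11 windows and 8.83% of all. The 5-letter TGACG, which the CRE contains, was in 6 of 11 windows and 20.8% of all, and lay at bases -129 to -125 and -66 to -62 in Fos, -60 to -56 in Fosb, -106 to -102 in Junb and -98 to -94 in Batf, which had no reads, with the other windows those of the second and the third Maff start. TATAAA was in 2 of 11 windows and 13.6% of all. In Fos it lay at bases -33 to -28, and in Junb at bases 1 to 6, after the start used. TGACNNNGC, the core of the antioxidant response element, was in 1 of 11 windows, the first Maff start, at bases -112 to -104, and in 12.4% of all windows. Both strands were searched, and the patterns TGACNTCA, TGACG and TATAAA were added after the others had been searched.

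With SKI-II, the transcripts of all 4 Fos genes and all 3 Jun genes rose, and none of the 10 members fell. Fosl1, Fosb and Fos changed most, 5.26-, 4.14- and 3.55-fold in the fitted values, followed by Jund, Jun, Fosl2 and Junb at 2.03-, 1.91-, 1.63- and 1.51-fold. Maff did not pass the test and Batf and Batf3 had no reads. By the quasi-likelihood test of edgeR, adjusted by the Benjamini-Hochberg method over all tested genes, 7 of the 8 tested members were higher at an adjusted p below 0.05, where 18.4% of all tested genes were higher and 19.7% lower. No member was lower by edgeR, by DESeq2 or at an unadjusted p below 0.05 (0 members each). A log2 fold change above 1 as well was reached by 4 members, Fosl1, Fosb, Fos and Jund, against 8.28% of all tested genes, while 0 members were lower by as much, against 7.44%. The median log2 fold change of the 8 members was 0.98, and that of all tested genes 0.0038. In 6 of the 8 the lowest SKI-II value exceeded the highest DMSO value, which held for 24.8% of all tested genes. The number called higher was 5 to 7 with any 1 library left out, with 5 when SKI-II replicate 2 was left out. Of all tested genes, 1507 to 2227 were called higher with a library left out, against 2255 with all libraries. In whole-culture RNA, more RNA in each cell and a larger share of cells with the transcript cannot be told apart.

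**Figure D1:**
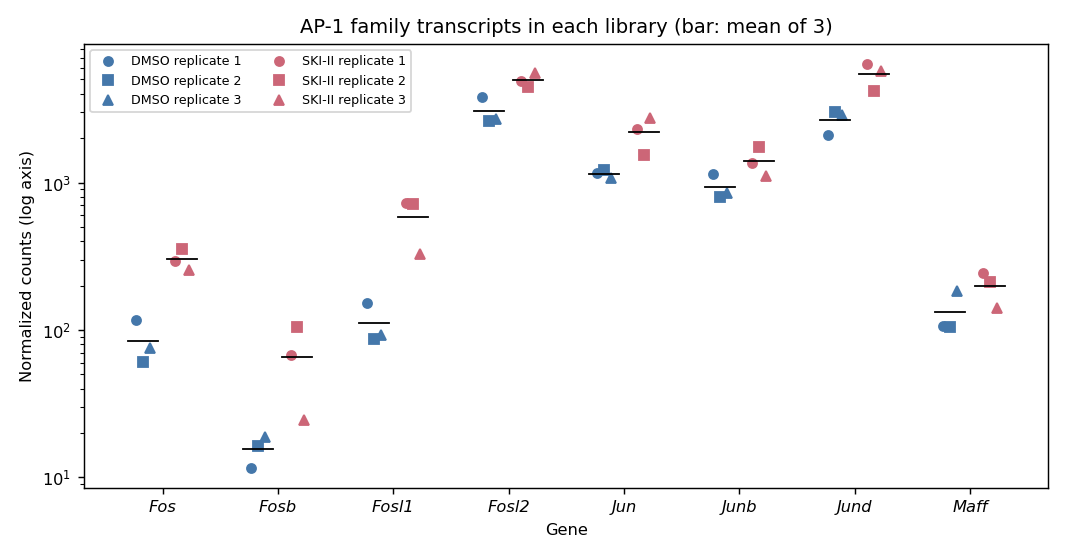
Normalized counts (log axis) of the 8 members with reads in each of the 3 DMSO and 3 SKI-II libraries, with a bar at each mean. Fos, Fosb, Fosl1, Fosl2, Jun and Jund do not overlap between conditions, while Junb and Maff do.

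Fosl1 encodes Fra-1, a Fos protein without the strong activation domain of Fos itself. It lies at chr19:5447547-5455946 on the plus strand (GRCm38, GENCODE M21). It was read 158, 69 and 93 times in DMSO replicates 1, 2 and 3 and 646, 749 and 400 times in the SKI-II replicates in the same order. The lowest SKI-II library, at 326 normalized counts, was above the highest DMSO library, at 153. Normalized counts rose from 111 ± 36.9 to 588 ± 227 (mean ± SD, n = 3 each), with a log2 fold change of 2.40 (SE, its standard error, 0.33, edgeR adjusted p = 0.000479). Of the 2033 exon bases of Fosl1, 1163 are shared with Ccdc85b on the other strand, and without a known strand setting the reads there cannot be assigned to either gene. Ccdc85b moved the other way, from 351 ± 12.5 to 207 ± 15.6 normalized counts (mean ± SD, n = 3 each), with a log2 fold change of -0.76 (adjusted p = 0.00341 from edgeR).

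Fos (chr12:85473890-85477273, plus strand), the founding member and a textbook readout of recent stimulation, had 120, 48 and 76 counts with DMSO and 262, 374 and 312 with SKI-II. All 3 treated libraries stood above all 3 vehicle libraries after scaling, at 254 or more against 117 or less normalized counts. Its log2 fold change was 1.83 (SE 0.26, edgeR adjusted p = 0.000535). Fosb (chr7:19302696-19310051, minus strand), a close relative of Fos, had only 12, 13 and 19 counts with DMSO and 60, 109 and 30 with SKI-II. Here the treated libraries were far apart, from 24.4 normalized counts in replicate 3 to 104 in replicate 2, and the lowest was just above the highest DMSO value of 18.8. The log2 fold change of 2.05 had a standard error of 0.52 (adjusted p = 0.0113 from edgeR), and without SKI-II replicate 2 it was 1.53 and no longer called (adjusted p = 0.0551). Fosl2 (chr5:32135801-32157842, plus strand), which encodes Fra-2, was the Fos gene with the most reads in all 6 libraries, with 3897, 2064 and 2738 counts with DMSO and 4382, 4633 and 6780 with SKI-II. The conditions did not overlap, and the rise was smaller, with a log2 fold change of 0.71 (SE 0.17, edgeR adjusted p = 0.00792). Its call held with any 1 library left out, though without DMSO replicate 2 only barely, with a log2 fold change of 0.60 (adjusted p = 0.04996 from edgeR).

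Jun (chr4:95049034-95052222, minus strand, a single exon) encodes a main partner of the Fos proteins. Its counts were 1189, 960 and 1077 with DMSO, a narrow range, and 2060, 1602 and 3337 with SKI-II. Normalized, it rose from 1145 ± 73.8 (SD, n = 3) to 2184 ± 604 (SD, n = 3), with no overlap and a log2 fold change of 0.93 (SE 0.19, edgeR adjusted p = 0.00402). Jund (chr8:70698949-70700616, plus strand, a single exon), the Jun gene that resting cells commonly express, had 2178, 2382 and 2914 counts with DMSO and 5675, 4372 and 7056 with SKI-II. Again no library of one condition reached the other, and the log2 fold change was 1.02 (SE 0.19, edgeR adjusted p = 0.00224). Junb (chr8:84974484-84978718, minus strand), often a weaker activator than Jun, had 1172, 634 and 857 counts with DMSO and 1218, 1820 and 1353 with SKI-II. The conditions overlapped, since SKI-II replicate 3 had 1102 normalized counts and DMSO replicate 1 had 1138. Its log2 fold change of 0.59 (SE 0.19, edgeR adjusted p = 0.0344) was the least firm of the 7. The call was lost without DMSO replicate 2 (adjusted p = 0.140) or 3 (0.0817) and without SKI-II replicate 1 (0.0809) or 2 (0.146), and with library size alone as the scaling (0.0520). Reads on exon bases shared with a gene on the other strand cannot be assigned for 232 bases of Jun (Junos), 173 of Junb (Prdx2) and 877 of the 1668 of Jund (Gm11175). Prdx2 fell by 0.62 on the log2 scale (adjusted p = 0.0224 from edgeR), and Junos had a log2 fold change of -0.14 (adjusted p = 0.852 from edgeR). Gm11175, whose exons lie wholly inside Jund, had 0 counts in each library.

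Maff (chr15:79346621-79359076, plus strand) was read 110, 83 and 187 times with DMSO and 219, 223 and 172 times with SKI-II. DMSO replicate 3, at 185 normalized counts, was above SKI-II replicate 3, at 140, while the other libraries separated by condition. The log2 fold change was 0.58 with a 95% interval of -0.06 to 1.22 (adjusted p = 0.138 from edgeR). Without DMSO replicate 3 it was 0.90 and passed the test (adjusted p = 0.0257). Mafg, another small Maf gene, rose from 2219 ± 345 to 4164 ± 312 normalized counts (mean ± SD, n = 3 each), with a log2 fold change of 0.91 (adjusted p = 0.000842 from edgeR). Mafk, the third, had a log2 fold change of 0.16 (adjusted p = 0.513 from edgeR). Maff made up 7.16% ± 2.31 (SD, n = 3) of the summed small Maf level per kilobase with DMSO and 6.83% ± 1.59 (SD, n = 3) with SKI-II, a difference of -0.32 points that was within the spread of the libraries (exact permutation test, two-sided, p = 0.9, with 0.1 the smallest possible). With DMSO replicate 1, 2 or 3 left out the difference was -0.59, -1.32 or 0.95 points, and with SKI-II replicate 1, 2 or 3 left out it was -0.84, -0.71 or 0.59 points.

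Batf (chr12:85686669-85709087) and Batf3 (chr1:191097847-191108945), both on the plus strand and with roles in T cells and dendritic cells, had 0 reads in all 6 libraries. A total of 0 leaves room for up to 3 counts over the libraries of a condition, which is 0.0659 CPM (counts scaled by library size) with DMSO and 0.0588 CPM with SKI-II, a limit that covers counting error only. Batf2, a relative from the related factors, was read at 39.0 ± 10.5 (SD, n = 3) and 52.5 ± 2.64 (SD, n = 3) normalized counts, with a log2 fold change of 0.42 (adjusted p = 0.301 from edgeR).

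**Figure D2:**
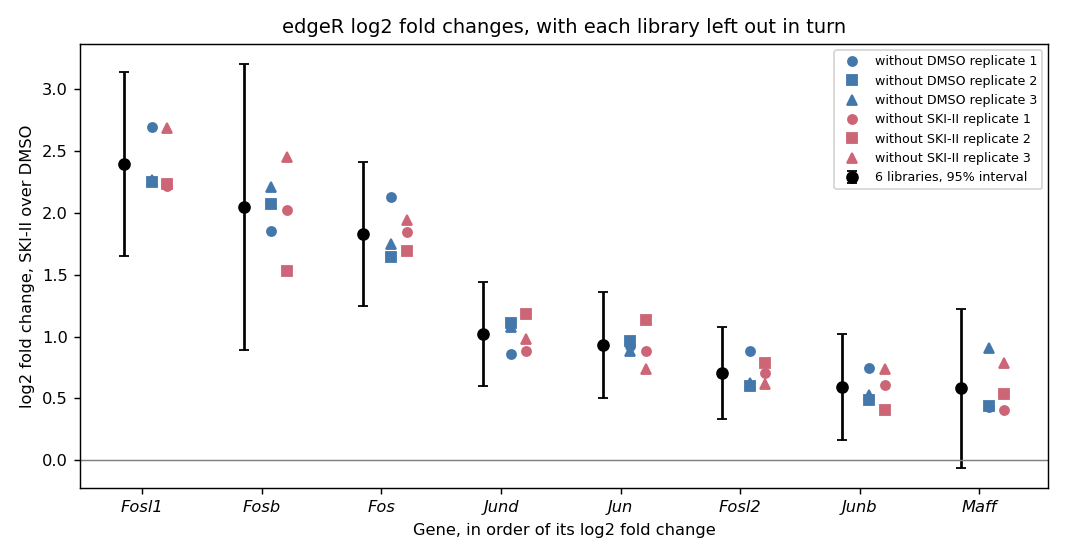
Fitted log2 fold change (SKI-II over DMSO) of each of the 8 tested members from 6 libraries, with its 95% interval, and the value with each library left out in turn. Maff is the gene whose interval, -0.06 to 1.22, includes 0, and the values of Fosb reach down to 1.53 without SKI-II replicate 2.

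The members did not follow one order among the treated libraries. SKI-II replicate 3 was the lowest treated library for Fos, Fosb, Fosl1, Junb and Maff, at 3.02, 1.56, 2.94, 1.19 and 1.06 times the DMSO mean. The same library was the highest for Jun, at 2.37 times, and for Fosl2, at 1.82 times. SKI-II replicate 2 was the lowest for Jun, Jund and Fosl2, at 1.34, 1.56 and 1.46 times the DMSO mean, and the highest for Fos, Fosb and Junb. Among vehicle libraries, DMSO replicate 1 was the highest for Fos, Fosl1, Fosl2 and Junb, at 1.39, 1.38, 1.25 and 1.22 times the DMSO mean, and the lowest for Fosb and Jund, at 0.746 and 0.792 times. No more is read from these orders, since each rests on 3 libraries.

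Levels between genes were compared as normalized counts per kilobase of exon. With DMSO, Jund stood at the top with 1601 ± 290 per kilobase (SD, n = 3), followed by Junb at 404 ± 79.3, Jun at 359 ± 23.1 and Fosl2 at 314 ± 67.3, whose neighbouring ranges overlapped. Fosl1 at 54.6 ± 18.2, Maff at 51.0 ± 17.7 and Fos at 35.8 ± 12.3 formed a lower step whose neighbours also overlapped, and Fosb was last at 2.5 ± 0.58. With SKI-II the order was Jund at 3251 ± 674, Jun at 685 ± 189, Junb at 609 ± 139, Fosl2 at 511 ± 57.1, Fosl1 at 289 ± 112, Fos at 128 ± 22.0, Maff at 76.8 ± 20.7 and Fosb at 10.4 ± 6.38. From Fosl2 downward no neighbours overlapped in the treated libraries. When exon bases shared with another gene were left out of the length, a setting chosen after the data had been seen, Fosl1 stood at 676 with SKI-II, the third place after Jund and Jun, and Jund at 6856. The counts themselves were unchanged there, so these levels are too high if reads on shared bases had been counted, which is not known.

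**Figure D3:**
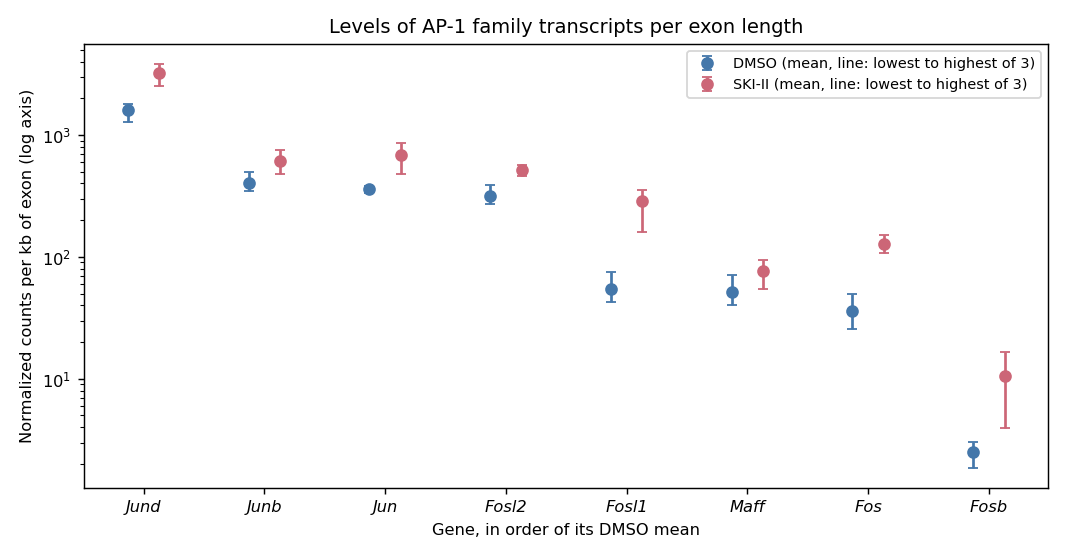
Mean normalized counts per kilobase of exon (log axis) of the 8 members in DMSO and SKI-II, with lines from the lowest to the highest of 3 libraries. Jund is at the top in both conditions, at 1601 and 3251, and Fosb at the bottom, at 2.5 and 10.4.

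Summed over the 7 Fos and Jun genes, the level per kilobase was 2643, 2874 and 2793 with vehicle and 6119, 4712 and 5621 with SKI-II. The conditions did not overlap, and the sum was 1.98-fold higher with SKI-II (exact permutation test, two-sided, p = 0.1, the smallest that 3 against 3 libraries can give). Jund accounted for 60.8% of the summed increase, Jun for 12%, Fosl1 for 8.64%, Junb for 7.55%, Fosl2 for 7.29%, Fos for 3.40% and Fosb for 0.293%. These percentages, and the order of Jun and Fosl1, rest on the full exon lengths. With shared bases left out of the length, Jun went from 387 to 739 per kilobase, Fosl1 from 127 to 676 and Jund from 3376 to 6856. The Fos group made up 14.8% ± 4.20 (SD, n = 3) of the sum with DMSO and 17.3% ± 3.00 (SD, n = 3) with SKI-II. That difference of 2.56 points was smaller than the spread between libraries (exact permutation test, two-sided, p = 0.5), and with raw counts in place of counts per kilobase it was -0.60 points. Leaving out DMSO replicate 1, 2 or 3 made it 4.96, 1.09 or 1.61 points. Leaving out SKI-II replicate 1, 2 or 3 made it 3.08, 0.86 or 3.73 points. With exon bases shared with another gene left out of the length, the difference was 3.64 points. Within the Fos group, the ratio of Fosl1 to Fosl2 per kilobase was 0.193, 0.159 and 0.162 with DMSO and 0.702, 0.770 and 0.281 with SKI-II. The ratio of Fos to Fosl2 was 0.127, 0.0957 and 0.114 with DMSO and 0.246, 0.332 and 0.189 with SKI-II. Neither ratio overlapped between conditions, with an exact permutation p of 0.1 each (two-sided, 0.3 after adjustment over 6 ratios chosen after the values were seen). The ratios Fosl1 to Fos, Junb to Jund, Jun to Jund and Maff to Mafg overlapped between conditions.

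Other basic leucine zipper factors, the wider class to which AP-1 belongs, were taken as a list of 18, all of them tested. By edgeR, 10 of these (55.6%) rose and 1 (5.56%) fell at the same threshold, against 18.4% and 19.7% of all tested genes, with a median log2 fold change of 0.41. The largest increases were those of Ddit3, which encodes the stress factor CHOP, at 1.67, Atf3, a stress-induced factor that can pair with Jun, at 1.48, and Creb3, a membrane-bound factor of the secretory pathway, at 1.31. Atf3 had 1260, 1012 and 1514 counts with DMSO and 5073, 2785 and 3435 with SKI-II (adjusted p = 0.00204 from edgeR). Creb1, which binds the CRE, fell by 0.47 on the log2 scale (adjusted p = 0.0196 from edgeR), but was not called without DMSO replicate 2 (adjusted p = 0.0773) or SKI-II replicate 2 (0.0891). Jdp2, a repressor that pairs with Jun, had a log2 fold change of 0.17 (adjusted p = 0.539 from edgeR).

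The list of Maf factors and of the Nrf2-type partners of small Maf proteins had 12 genes, of which 8 were tested, 4 rose and 0 fell in edgeR's test, as 0 did by DESeq2 and at an unadjusted p below 0.05. Those that rose are 50% of the 8 tested, where 18.4% of all tested genes were higher and 19.7% lower. The median log2 fold change was 0.56. Under a filter of 10 counts in each library, which Bach2 and Nfe2 did not reach, 2 were called higher. The largest increase was that of Bach2, a repressor partner of small Maf proteins, which had 3, 1 and 2 counts with DMSO and 24, 49 and 24 with SKI-II. Its log2 fold change was 3.80 (SE 0.57, edgeR adjusted p = 0.000748), and 3.01 with a prior count of 2. Nfe2, the founding partner, rose from 4, 5 and 7 to 14, 20 and 35 counts, a log2 fold change of 1.89 (adjusted p = 0.00901 from edgeR). Nfe2l2, which encodes Nrf2, was at 1584 ± 131 (SD, n = 3) and 1571 ± 47.6 (SD, n = 3) normalized counts, a log2 fold change of -0.01 with a 95% interval of -0.27 to 0.24.

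Of 27 MAP kinases and kinase kinases, which act upstream of AP-1, 24 were tested, and 6 rose and 6 fell in edgeR's test, with a median log2 fold change of -0.11. That is 25% in each direction, near the 18.4% higher and 19.7% lower among all tested genes. Map3k5, the stress kinase ASK1, rose by 1.33 on the log2 scale, Map3k6, its relative, by 1.22 and Map3k3 by 0.58. Map2k6, which activates p38, fell by 1.23, Map3k1, which acts toward JNK, by 1.17 and Map3k20 by 0.87. Map3k6 was not called without SKI-II replicate 2 (adjusted p = 0.0589), without SKI-II replicate 1 (0.0741) and without DMSO replicate 2 (0.0748). With DMSO replicate 2 or SKI-II replicate 1 left out, 3 genes of the list were called higher. In these settings 1507 and 1729 of all tested genes were higher, against 2255 with all libraries. Mapk8, which encodes the Jun kinase JNK1, had a log2 fold change of -0.22 (edgeR adjusted p = 0.258), and that of Mapk14, which encodes p38α, was 0.01 (edgeR adjusted p = 0.943). These are transcript levels and say nothing of kinase activity.

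Among serum response factor and its cofactors, which act on early genes such as Fos, 1 of 6 genes was called, Mrtfb, with a log2 fold change of 0.52 (adjusted p = 0.0480 from edgeR). Leaving out any library except SKI-II replicate 3 lost that call, with an adjusted p of up to 0.182, and so did limma-voom (adjusted p = 0.0680) and scaling by library size alone (0.0669). That is 16.7% of the list, near the 18.4% of all tested genes that were higher. Of 13 genes for turnover or restraint of AP-1, 5 (38.5%) rose and 1 (7.69%) fell, against 18.4% and 19.7% of all tested genes. Dusp1, a phosphatase of p38 and JNK and itself an early gene, rose from 226, 223 and 442 to 2529, 1134 and 1865 counts, a log2 fold change of 2.53 (adjusted p = 0.000537 from edgeR). Trib3 and Trib1, pseudokinases of which Trib1 works with the ubiquitin ligase COP1, rose by 1.67 and 1.33 on the log2 scale. Hdac3, a histone deacetylase, had a log2 fold change of -0.35 (adjusted p = 0.0365 from edgeR). Its call was lost without any 1 of DMSO replicates 1 and 2 and SKI-II replicates 1, 2 and 3, with an adjusted p of up to 0.141. Of the 3 factors that bind beside BATF, Irf4, Irf8 and Spi1, 0 were called by edgeR, 0 by DESeq2 and 0 reached an unadjusted p below 0.05.

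Textbook AP-1 target genes were listed as 30 genes, Fosl1 and Jun among them, and 19 were tested. Of these, 8 were higher and 4 lower in edgeR's test, with a median log2 fold change of 0.08. These are 42.1% and 21.1%, against 18.4% and 19.7% of all tested genes, and 2 of the 8 are the members Fosl1 and Jun. Among those that rose were Cxcl2, a neutrophil chemokine, and Ptgs2, the inducible cyclooxygenase. Cxcl2 had 25, 27 and 34 counts with DMSO and 997, 1198 and 1212 with SKI-II, a log2 fold change of 5.14 (adjusted p = 6.02e-07 from edgeR). Ptgs2 had 207, 264 and 414 and then 6270, 7809 and 8797, a log2 fold change of 4.52 (adjusted p = 6.90e-06 from edgeR). In both genes the conditions did not overlap. Plau, which encodes urokinase, went the other way, with 5604, 3046 and 3467 counts with DMSO and 527, 637 and 839 with SKI-II, a log2 fold change of -2.76 (adjusted p = 9.51e-06 from edgeR). Ccl3, a chemokine, fell by 0.85 and Acp5, an osteoclast phosphatase, by 0.81 on the log2 scale. The call of Ccl3 was lost without SKI-II replicate 1 (adjusted p = 0.0645). Of 10 osteoclast markers, 7 were tested, 5 were lower and 0 higher in edgeR's test, with 0 higher at an unadjusted p below 0.05, a share of 71.4% lower against 19.7% of all tested genes, and their summed level was 5001 to 5600 normalized counts with DMSO and 3018 to 3286 with SKI-II.

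**Figure D4:**
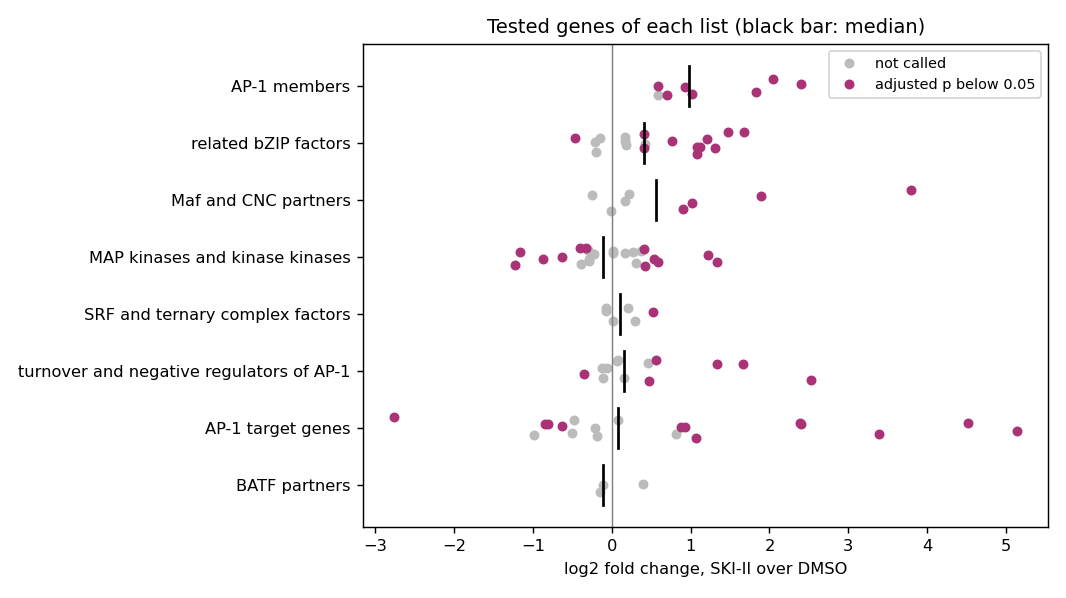
Fitted log2 fold changes (SKI-II over DMSO) of the tested genes of the AP-1 family and of 7 related lists, coloured by edgeR's adjusted p, with a bar at each median. All 8 tested members lie above 0 with a median of 0.98, while the kinases have a median of -0.11 and the target genes range from -2.76 to 5.14.

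Genes whose pattern over the 6 libraries lay nearest to that of Fos, Jun and Maff were sought among 11289 genes whose mean reached 20 normalized counts. The measure was the Euclidean distance between log2 normalized counts, each taken relative to the gene's own DMSO mean. Nearest to Fos were Cebpe, at a distance of 0.194, and C5ar1, at 0.217, with mean normalized counts of 132 and 504 for Cebpe and 227 and 805 for C5ar1 in DMSO and SKI-II. Nearest to Jun were Ccdc130, at 0.200, and Pycr1, at 0.383. Nearest to Maff were Bmpr1a, at 0.440, and Nucb1, at 0.445.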

How the data were processed

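Poly(A) RNA of 6 RAW264.7 libraries was sequenced after the NEBNext Ultra II RNA kit. The deposited values were raw read counts per Ensembl gene, which the authors made with tools named in the submitters' processing notes: Trimmomatic 0.36, STAR 2.5.2b, featureCounts of Subread 1.5.2 and DESeq2. For the genome build, annotation and strand setting, no statement was found (not given in the sources used here). Of 49315 gene IDs, 49056 were named by GENCODE M21 (GRCm38), whose exons gave the gene lengths, and promoter sequences came from RefSeq (GRCm38.p6).

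Groups came from the treatment labels. Genes passing edgeR's filterByExpr (minimum count 10) were scaled by TMM and tested with edgeR 4.0.16 (quasi-likelihood F test, R 4.3.3), adjusted by Benjamini-Hochberg over 12274 genes and called at an adjusted p below 0.05. The common coefficient of biological variation was 17.5%, and replicate pairs differed beyond sampling noise. Standard errors are the log2 fold change over the square root of F. Alternatives were DESeq2 1.42.0, limma-voom (limma 3.58.1), other scalings and filters, a prior count of 2, a replicate block and leaving out each library. The fit was tested on simulated data. Plots used matplotlib 3.10.9.

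The members and lists were chosen with earlier results of these data known. In each list, the called genes with the 3 largest and 3 smallest log2 fold changes are named, and for Fos, Jun and Maff the 2 genes nearest in pattern. Some genes that this rule takes are not reported here. Mafg, Mafk, Nfe2l2, Mapk8, Mapk14, Jdp2, Batf2, Ighm, Lck and the genes overlapping members were named after their values were seen.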

Additional observations from a re-analysis of the deposited data

How the results depend on the processing

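Over 8 alternatives in tool, scaling, filter, prior count and block, 6 to 7 members were called higher, and 5 to 7 with a library left out, with 0 lower throughout. Of all tested genes, 2035 to 2765 were higher over the alternatives and 1507 to 2227 with a library left out, against 2255 in the main fit. Those lower were 2277 to 2819 and 1766 to 2387, against 2413. Fos, Fosl1, Fosl2, Jun and Jund stayed called in all 14 settings, with log2 fold changes of 1.64 to 2.13, 2.22 to 2.69, 0.60 to 0.88, 0.74 to 1.14 and 0.86 to 1.18. Fosb ranged from 1.53 to 2.45, Junb from 0.41 to 0.75 and Maff from 0.41 to 0.90. With at least 10 counts in every library, 2 Maf factors and partners were called higher in place of 4, since Bach2 and Nfe2 were not tested there. Serum response factor and its cofactors had 0 genes called with limma-voom, 0 with library size alone and 0 to 1 with a library left out. The genes restraining AP-1 had 0 lower without a filter on low counts and 0 to 1 with a library left out. Leaving out libraries gave 3 to 6 kinases called higher and 0 to 1 related leucine zipper factors called lower. The cause of the other changes was not tested. Fosb had 12 to 19 counts per DMSO library and Bach2 1 to 3.

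The conditions share replicate numbers. Deviations of same-numbered libraries correlated at 0.246, 0.00994 and 0.458 across genes. DMSO replicate 3 correlated best with SKI-II replicate 3, and at -0.255 and -0.280 with SKI-II replicates 1 and 2. DMSO replicate 1 correlated best with SKI-II replicate 2, at 0.296, and at -0.462 with SKI-II replicate 3. The best matches did not follow the numbers throughout, so a pairing was not shown and the numbers were not used to pair libraries. A shared batch was not tested otherwise. With a replicate block, 7 members were again called higher, and over all tested genes 2765 were higher and 2819 lower, against 2255 and 2413 without it.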
